A study of Mus musculus with 18 samples.

Results

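Immediate-early genes outside the AP-1 family were followed in end-stage splenic tumours of Eμ-Myc mice. The group held 10 genes: the zinc-finger transcription factors Egr1, Egr2 and Egr3, the orphan nuclear receptor gene Nr4a1, the Krüppel-like factors Klf2, Klf4 and Klf6, the response genes Ier2 and Ier3, and the phosphatase gene Dusp1. They were chosen by symbol, and all 10 were among the 19938 genes measured, each by 1 probe set. RNA was taken from tumours of 9 Prdm11 knockout (KO) mice and 9 Prdm11 wild-type (WT) mice, with 1 array and 1 mouse per tumour. Mice of both genotypes were Eμ-Myc transgenic, so that Myc is driven in B-lineage cells by the enhancer of the immunoglobulin heavy chain locus, and the strain background was C57BL/6 throughout. The mice received no treatment, the sources used here do not give their ages, and tumours without the transgene or healthy spleens were not analysed here. Tumours were frozen and homogenised whole, so that each value averages lymphoma cells and all other cells of the organ.

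Immediate-early genes are transcribed within minutes of a mitogen, antigen receptor or stress signal, without the need for new protein. Signals through ERK and other kinases reach them through serum response factor at CArG boxes and through CREB at cyclic AMP response elements (CRE). In B cells EGR1 to EGR3 and NR4A1 are known as products of antigen receptor signalling, KLF2 keeps lymphocytes quiescent and shapes their homing, and DUSP1 dephosphorylates MAP kinases and so ends the signal.

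Promoters of 7 of the 10 genes were matched in the RefSeq promoter table on GRCm38.p6, as 11 windows that run from 250 bases before to 50 bases after an annotated start. Those of Egr1, Egr3 and Ier2 were not used here. A full CRE (TGACGTCA) lay in the window of Dusp1 alone, against 1.79% of all 32851 windows in the table. CArG boxes were found for Egr2 alone, in 4 of its windows, against 1.63% of all windows. Several of these windows overlap and hold the same box, so the count is of windows and not of separate sites. The CRE core (TGACG), which a full CRE also contains on both strands, was found for 5 genes. It lay in 7 of the 11 windows, against 20.8% of all windows. The E-box CACGTG, a sequence that MYC binds, was found for Egr2, Klf4, Klf6 and Dusp1. It lay in 4 of the 11 windows, against 7.15% of all windows. An AP-1 site (TGANTCA) was found for 0 of the 7 genes, against 7.81% of windows. A GC box (GGGCGG) was found for 7 genes, in 8 of the 11 windows, against 35.7% of all windows. All motifs were searched on both strands, and a match describes the letters only. The sequences below belong to the genes on which the later comparisons turn, and Egr2 is shown for its CArG box. Capitals mark CArG boxes, CREs, CRE cores and E-boxes. The Dusp1 sequence is chr17:26508473-26508722 on the minus strand, Klf6 is chr13:5861239-5861488, Ier3 is chr17:35821463-35821712 and the Egr2 stretch, which begins 79 bases before an annotated start, is chr10:67537790-67537819, the last 3 on the plus strand.
Dusp1: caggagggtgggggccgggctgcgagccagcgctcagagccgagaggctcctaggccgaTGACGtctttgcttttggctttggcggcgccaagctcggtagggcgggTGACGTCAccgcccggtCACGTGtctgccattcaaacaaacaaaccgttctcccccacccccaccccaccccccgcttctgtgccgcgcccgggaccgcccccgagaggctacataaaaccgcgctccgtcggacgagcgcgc
Klf6: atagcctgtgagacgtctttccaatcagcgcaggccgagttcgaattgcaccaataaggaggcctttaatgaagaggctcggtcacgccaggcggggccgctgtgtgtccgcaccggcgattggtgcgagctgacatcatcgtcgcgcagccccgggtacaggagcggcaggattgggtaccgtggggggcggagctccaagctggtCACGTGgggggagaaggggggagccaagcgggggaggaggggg
Ier3: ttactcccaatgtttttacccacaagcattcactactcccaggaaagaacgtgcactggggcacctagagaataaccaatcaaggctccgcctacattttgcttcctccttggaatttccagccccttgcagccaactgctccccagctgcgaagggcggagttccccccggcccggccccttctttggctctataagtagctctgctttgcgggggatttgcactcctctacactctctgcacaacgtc
Egr2: cctcagtCCATATATGGgcagcgaCGTCAc
Dusp1 carried a CRE, a further CRE core and an E-box within 250 bases, Klf6 an E-box, and Ier3 none of the capitalised motifs.

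Levels are log2 values of the deposited robust multi-array average (RMA) intensities, which have no zero, so 1 unit is a doubling. Array medians ran from 5.14 in KO9 to 5.38 in WT3 on the log2 scale. The median correlation of an array with the others was 0.937 for WT3 and lay between 0.958 and 0.981 for the rest, so WT3 stood apart. WT3 and KO4 had the highest array medians, and values without them are given below for Egr3, Nr4a1, Klf4 and Klf6. The Prdm11 probe set averaged 5.21 ± 0.23 in KO tumours and 5.33 ± 0.26 in WT tumours (SD, n = 9 each). Its groups overlapped, and since the deleted part of the gene and the place of the probes were not given, it does not check the genotype labels. B cell genes were present in both genotypes: the mean of 11 pan-B markers lay between 6.79 and 8.28 in KO tumours and between 6.84 and 8.07 in WT tumours. The table has no detection calls. As a rough guide to the background, the probe sets of 1194 olfactory and vomeronasal receptor genes had means with a median of 3.44 and a 95th percentile of 5.02. Levels of different probe sets are not comparable, and each gene is compared only with itself.

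None of the 10 genes passed the test of a difference between genotypes after adjustment over all genes. Ier3 and Klf4 had the lowest unadjusted p-values, both with lower means in KO tumours, and for 8 of the 10 genes the KO mean was the lower one.

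Egr1, a zinc-finger factor induced by ERK signalling, lay between 5.14 and 5.70 in KO tumours (median 5.33), against 5.13 to 5.91 in WT tumours (median 5.46). The groups overlapped almost fully, and both the lowest tumour, WT8, and the highest, WT5, were from WT mice. Its KO minus WT difference was -0.097, with a 95% interval from -0.31 to 0.12. Egr2, which acts with Egr3 to restrain lymphocyte activation, lay between 4.86 and 6.11 in KO tumours (median 5.23), against 5.10 to 5.33 in WT tumours (median 5.26). KO6 alone reached 6.11, and the next KO tumour was KO4 at 5.47. The KO values were spread on both sides of the narrow WT range, with an SD of 0.36 in KO tumours and 0.09 in WT tumours. Whether these spreads differ was not tested. Egr3 lay between 5.70 and 6.42 in KO tumours (median 5.86), against 5.77 to 6.40 in WT tumours (median 5.97). KO4 and WT3, 1 tumour of each genotype, were the highest. The difference was 0.049 (95% interval -0.21 to 0.31) for Egr2 and -0.091 (-0.30 to 0.12) for Egr3. Without KO6 that of Egr2 was -0.055, which turned its sign.

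Nr4a1, the gene of NUR77 and a common reporter of antigen receptor signalling, lay between 4.94 and 5.57 in KO tumours (median 5.18), against 5.003 to 5.68 in WT tumours (median 5.16). WT3 and KO6 were the highest tumours of their genotypes, and the other tumours overlapped. The difference was -0.034 (95% interval -0.24 to 0.18) with all tumours. It was 0.054 without WT3 and KO4 and 0.023 without WT3, which turned its sign.

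Klf2 lay between 6.61 and 7.62 in KO tumours (median 7.21), against 6.55 to 7.65 in WT tumours (median 7.35). The 2 ranges nearly coincided, with KO1 and WT1 the lowest of their groups. Its difference was -0.11 (95% interval -0.45 to 0.23). Klf4, a factor that restrains B cell proliferation, lay between 4.83 and 5.47 in KO tumours (median 5.19), against 5.06 to 5.82 in WT tumours (median 5.44). Of the KO tumours 3 lay below every WT tumour, and of the WT tumours 4 lay above every KO tumour. Its mean was 5.17 ± 0.22 in KO tumours and 5.44 ± 0.23 in WT tumours (SD, n = 9 each). The difference of -0.26 (SE 0.11) had an unadjusted limma p of 0.0227 and an adjusted p of 0.699, and the two-sided exact permutation p was 0.0231. Without WT3 and KO4 the difference was -0.21 and the unadjusted limma p 0.0643. In fits with marker levels as covariates the difference was -0.30 with the erythroid level and -0.32 with the macrophage and endothelial levels. Klf6, an injury-response factor also used by myeloid cells, lay between 5.15 and 6.39 in KO tumours (median 5.84), against 5.35 to 6.51 in WT tumours (median 6.21). Of the 9 KO tumours 8 lay below the WT median, yet the ranges overlapped over most of their length. The difference was -0.26 (95% interval -0.60 to 0.077, limma adjusted p = 0.794). It was -0.37 without WT3 and KO4, and -0.14 in a fit that included the macrophage and endothelial marker levels as covariates. With the erythroid level as a covariate it was -0.30.

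Ier2, a small nuclear protein gene induced by growth factors, lay between 4.77 and 5.31 in KO tumours (median 5.15), against 4.71 to 5.43 in WT tumours (median 4.995). It was 1 of only 2 genes in the group, with Egr2, whose KO mean was the higher, by 0.083 (95% interval -0.12 to 0.28). Ier3, whose product modulates cell survival and ERK signalling, had levels of 5.83, 5.49, 5.73, 5.44, 5.11, 5.64, 5.10, 5.80 and 5.98 in KO1 to KO9. In WT1 to WT9 it had levels of 6.30, 6.38, 6.05, 5.80, 5.74, 5.91, 6.02, 5.79 and 5.69. KO5 and KO7 were the lowest, 5 KO tumours lay below every WT tumour, and 4 WT tumours lay above every KO tumour. The mean was 5.57 ± 0.31 in KO tumours and 5.96 ± 0.24 in WT tumours (SD, n = 9 each), a KO to WT ratio of 0.761 (95% interval 0.631 to 0.917). The difference of -0.39 (SE 0.13) had an unadjusted limma p of 0.00617, an adjusted p of 0.683 and an exact permutation p of 0.00786. In all 28 alternative fits it stayed below 0, between -0.45 and -0.34, with an unadjusted limma p below 0.05 in each, and it passed the adjusted threshold in none. With the erythroid marker level as a covariate it was -0.36, and with the macrophage and endothelial levels -0.39.

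Dusp1 lay between 5.27 and 5.93 in KO tumours (median 5.74), against 5.46 to 6.76 in WT tumours (median 5.83). WT1 reached 6.76, and the next tumour of either genotype was WT4 at 6.07. The difference was -0.19 (95% interval -0.48 to 0.091) and came to -0.088 without WT1. It came to -0.026 in a fit with the erythroid marker level as a covariate, a level that was also highest in WT1. With the macrophage and endothelial levels as covariates it was -0.10.

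**Figure D1:**
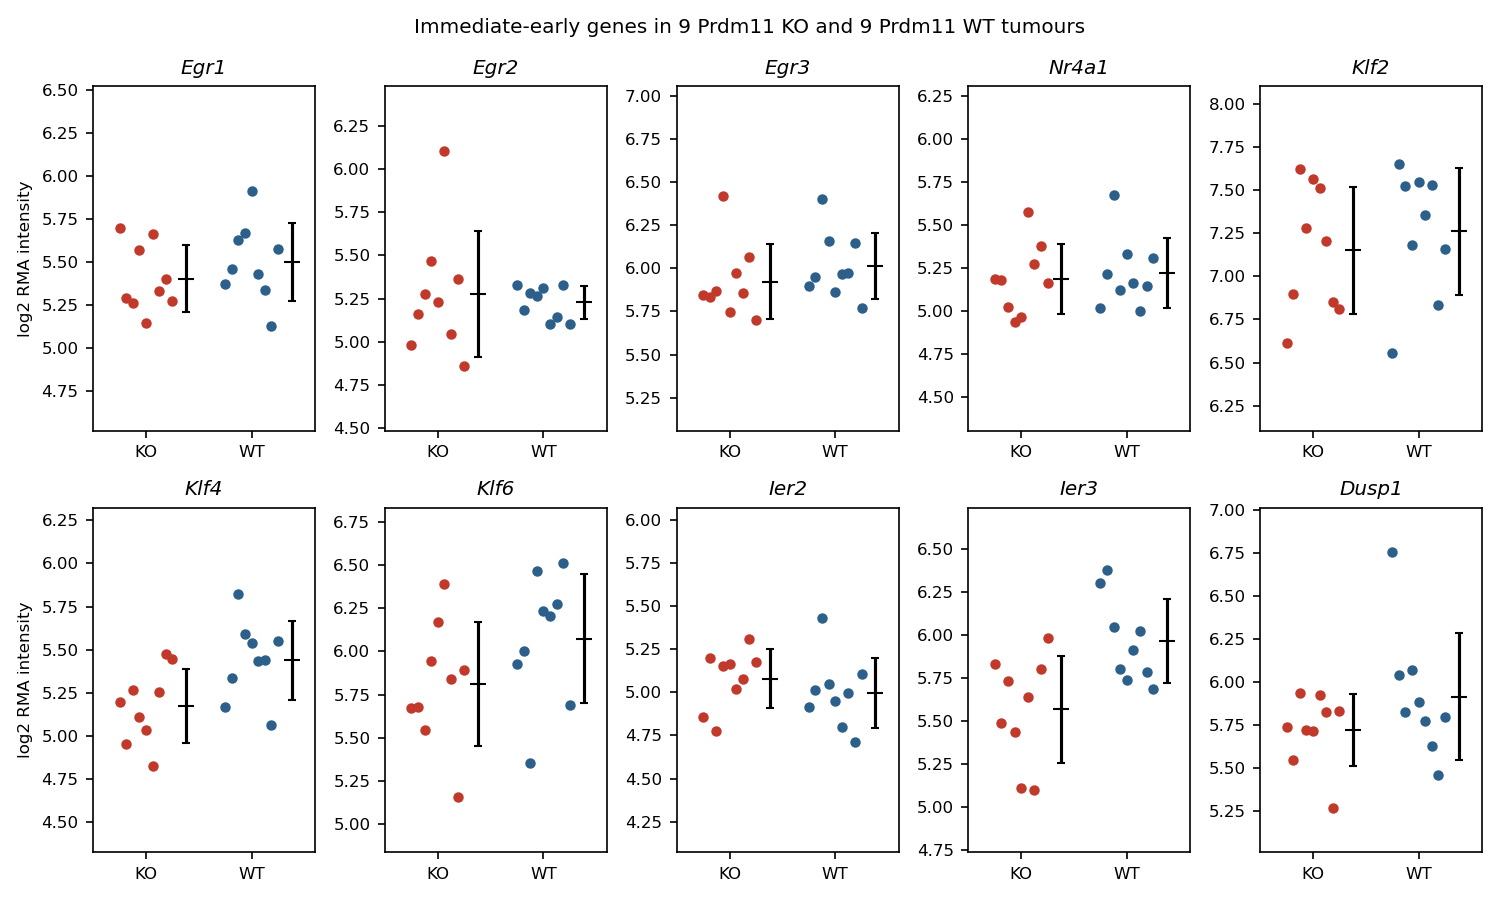
Log2 RMA intensity (vertical axis) of each of the 10 immediate-early genes in KO tumours and WT tumours; each point is 1 tumour and the bars give the mean and SD of 9 tumours. The groups overlap for every gene, and KO6 for Egr2 (6.11) and WT1 for Dusp1 (6.76) stand away from the other tumours of their genotype.

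The counts for the group are set here against those for all genes. Of the 10 genes 0 passed an adjusted limma p of 0.05, against 1 gene or 0.00502% of all 19938. That gene was Cd59a, a complement regulator, which averaged 5.19 in KO tumours and 7.22 in WT tumours. The count was 1 in 8 of the 18 fits that left out 1 tumour, and 0 without KO3, KO5, KO7, KO8, WT3, WT4, WT5, WT6, WT7 or WT9. At an unadjusted limma p below 0.05, 2 of the 10 were lower in KO tumours, where 3.87% of all genes were, and 0 were higher, where 2.83% were. A negative difference was found for 8 of the 10 genes and for 59.2% of all genes. The median difference was -0.10 over the 10 genes and -0.030 over all genes. The genotypes overlapped for each of the 10 genes. How many of all genes were without overlap was not counted, so this only describes the 10. The smallest p that the exact permutation test of 9 against 9 tumours can give is 4.1e-05.

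**Figure D2:**
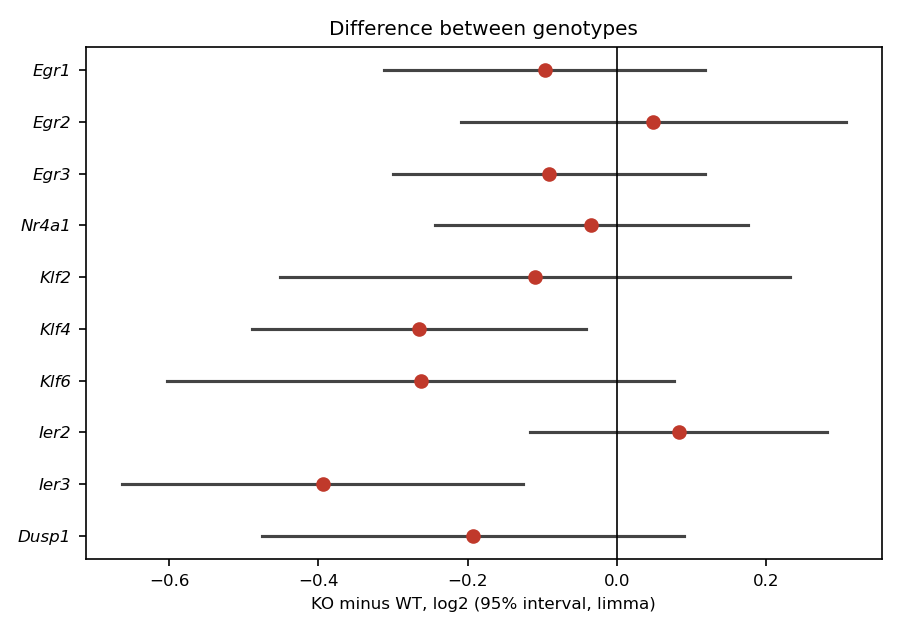
KO minus WT difference of each gene in log2 units (horizontal axis) with its 95% interval from the limma fit to 18 tumours. Ier3 (-0.39) and Klf4 (-0.26) are the only genes of the 10 whose interval leaves out 0, before any adjustment.

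Marker levels of other cell types also differed in mean between the genotypes. All 8 erythroid, 12 neutrophil and 10 dendritic markers measured had lower KO means, and the mean of the erythroid list lay between 6.42 and 8.11 in KO tumours and between 7.36 and 9.36 in WT tumours. T cell markers had lower KO means for 10 of 11 genes and macrophage and monocyte markers for 11 of 13, where 59.2% of all genes had. Pan-B markers went the other way, with higher KO means for 8 of 11 and a difference of 0.18 in the list mean, and megakaryocyte and platelet markers were divided, 4 higher and 3 lower. In whole tumours, fewer cells of a type and less RNA per cell cannot be told apart. The part of these levels in the differences of the 10 genes was not tested beyond the covariate fits above.

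No pair of the 10 genes was called as varying together over the 18 tumours. Of their 45 pairs, 32 had a positive Pearson r, the median r was 0.15 and 0 pairs passed an adjusted permutation p of 0.05, the lowest being 0.756. An absolute r of at least 0.5 was reached by 1 pair, or 2.22%, whereas 10% of all relations between one of the 10 genes and a gene outside the group reached it. Egr1 and Nr4a1, both known targets of antigen receptor signalling, had r = 0.48 (permutation p = 0.0455, adjusted 0.756) and rho = 0.48 (permutation p = 0.0438). The relation had the same direction in both genotypes, with r = 0.42 in KO tumours and 0.51 in WT tumours, and r was 0.49 without WT5 and WT8. Ier2 and Klf6 had the only r beyond 0.5 in size, at -0.51 (permutation p = 0.0301, adjusted 0.756), with rho = -0.43 (permutation p = 0.0749). That relation was -0.079 in KO tumours and -0.79 in WT tumours, and it came to -0.26 without WT3 and WT8. Egr2 and Egr3 had r = 0.38 (permutation p = 0.129) and rho = 0.64 (permutation p = 0.00498, adjusted 0.224), and r was 0.59 without KO6 and KO9. No pair passed the threshold by rank either.

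**Figure D3:**
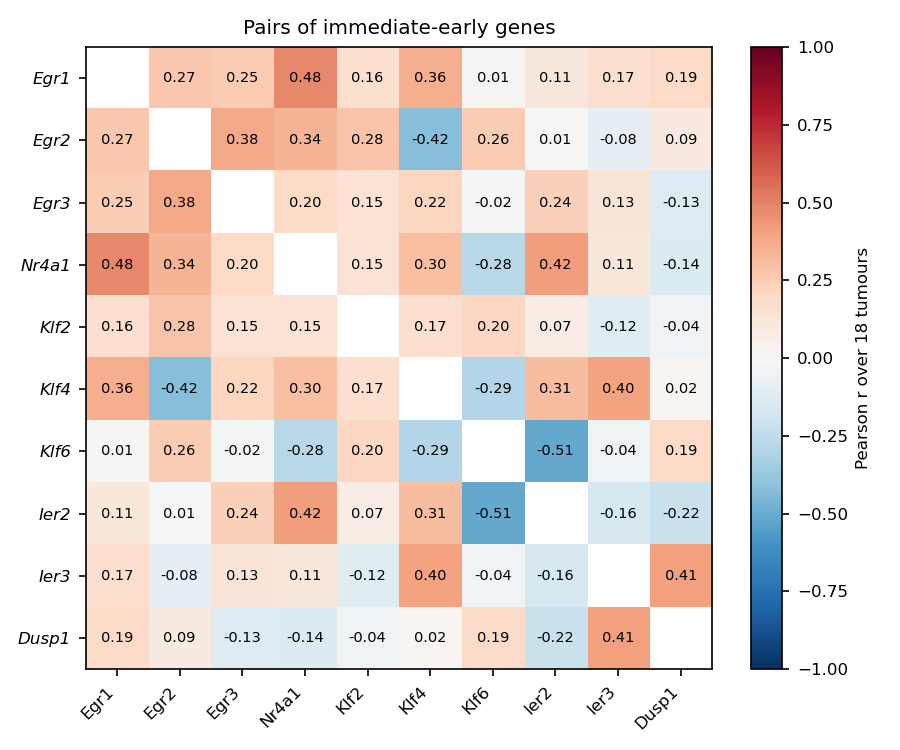
Pearson r over 18 tumours for each pair of the 10 genes, as a colour from negative to positive with the value in each cell. Most cells are weakly positive, and Ier2 with Klf6 (-0.51) is the only pair beyond 0.5 in size.

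With AP-1 genes, r was 0.22 for Egr1 and Fos, 0.70 for Egr3 and Fosb, 0.52 for Egr3 and Junb, and 0.56 for Klf4 and Junb, each over 18 tumours and given as a description. Without WT3 and KO4, in the same order, r was 0.24, 0.22, 0.44 and 0.60, so that of Egr3 and Fosb was much smaller without those tumours. No other relation of the 10 genes with Fos, Fosb, Jun or Junb reached 0.5 in size. Over all genes outside the group, 10% of relations did. The highest r with Jun was 0.46, for Klf2. Dusp1 had -0.28 with Fos, -0.18 with Fosb, -0.094 with Jun and -0.19 with Junb.

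By Pearson r, Klf6, Klf2 and Dusp1 varied with the mean levels of some marker lists, and Klf6 with several that were themselves related. Each gene was set against the mean level of 10 marker lists, which gave 100 relations. Of these, 5 passed an adjusted permutation p of 0.05, and they concerned these 3 genes. An absolute r of at least 0.5 was found in 12 of the 100, or 12%, against 9.83% for genes outside the group, so the share was near that of other genes. By rank (Spearman), 0 of the 100 passed. The 5 also depended on single tumours: 0 passed when KO3, KO5, KO8, WT4 or WT8 was left out, 2 when KO6 or WT1 was, and 3 when KO2, KO7, KO9 or WT5 was, whereas 7 passed without KO4 and 8 without WT3 and KO4. Checks below that keep the tumours lowest in a list were chosen after seeing the data.

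Klf6 varied with macrophage and monocyte markers. Its r with that list was 0.72 (permutation p = 0.0009, adjusted 0.0343) and rho was 0.69 (permutation p = 0.00231, adjusted 0.105). The direction was the same in both genotypes, with r = 0.77 in KO tumours and 0.68 in WT tumours, and r was 0.66 without WT4 and WT5. It had 12 of 13 markers on the positive side, led by Adgre1, the gene of a macrophage surface receptor, at r = 0.75. An r at least as high was found for 1.47% of genes. The list itself lay between 6.53 and 7.31 in KO tumours and between 6.46 and 7.53 in WT tumours. WT3 and KO8 were lowest for Klf6 and among the 4 lowest for the list.

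Klf6 also had r = 0.72 with T cell markers (permutation p = 0.00065, adjusted 0.0343; rho = 0.62, permutation p = 0.00701). With NK and cytotoxic markers r was 0.68 (permutation p = 0.00181, adjusted 0.0362; rho = 0.60, permutation p = 0.00929). An r at least as high was found for 2.04% of genes with the T cell list and for 3.07% with the NK list. Without KO6 and WT4, the farthest tumours on both lists, r was 0.63 for T cell and 0.57 for NK markers. Leaving out any 1 tumour kept r at 0.68 or above for T cell markers and at 0.63 or above for NK markers. Over the 13 tumours lowest in T cell markers (all but KO5, KO6, WT4, WT5 and WT8), r was 0.23 (permutation p = 0.454). Their rho was 0.077 (permutation p = 0.807). Over the 14 lowest in NK markers (all but KO6, WT4, WT5 and WT8), r was 0.30 (permutation p = 0.299) and rho 0.21 (permutation p = 0.473). Choosing tumours by the list also narrows its range, for T cell markers to 5.27 to 5.80, where all 18 tumours reached 7.29. The tumours left out began at 6.37 on that list. Because the range is narrowed, these lower values cannot decide whether the relations rest on the tumours left out. With genotype means subtracted, the NK relation had an adjusted permutation p of 0.0558. The T cell, NK, macrophage, stromal and dendritic lists were themselves related, with r between 0.72 and 0.94, so the relations of Klf6 to them are not separate. On dendritic markers the tumours formed 2 sets, 14 between 4.56 and 4.96 and the other 4, KO6, WT4, WT5 and WT8, between 5.45 and 5.83. These 2 sets are why no r over all 18 tumours is given for that list, though its relations to Klf6 and Egr2 are among the 12 counted above. Within the 14, r was 0.048 for Klf6 (permutation p = 0.870) and 0.28 for Egr2 (permutation p = 0.332).

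Klf2 varied with the mean level of the pan-B markers, though not with each of them. Its r with the pan-B list was 0.69 (permutation p = 0.00149, adjusted 0.0362) and rho was 0.71 (permutation p = 0.00127, adjusted 0.105). Within genotypes r was 0.70 in KO tumours and 0.84 in WT tumours, and without KO6 and KO8 it was 0.67. An r at least as high was found for 0.281% of genes. The markers differed among themselves: 7 of 11 had a positive r, and 5 had an r of at least 0.5. The highest was 0.84, for Bank1, a B cell scaffold protein gene. Of the rest, Cd79a had 0.47, Pax5 0.081, Cd72 -0.044, Ebf1 -0.068, Blnk -0.098 and Btk, the B cell tyrosine kinase gene, -0.19. KO3, KO5, KO6 and WT2 had the highest pan-B levels and high Klf2, and over the other 14 tumours, a narrower range of the list, r was 0.49 (permutation p = 0.0751). After quantile normalization r was 0.65 and the adjusted permutation p 0.0683.

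Dusp1 varied with endothelial markers. Its r was 0.68 (permutation p = 0.00103, adjusted 0.0343) and rho was 0.67 (permutation p = 0.00315, adjusted 0.105), with r = 0.79 in KO tumours and 0.68 in WT tumours. All 13 endothelial markers had a positive r, the highest being 0.54 for Cdh5, the gene of VE-cadherin, and r for the list was 0.63 without KO6 and KO8. After quantile normalization r was 0.64 and the adjusted permutation p 0.0558. With the endothelial list an r at least as high as that of Dusp1 was found for 0.918% of genes. With the erythroid list r was 0.66 (permutation p = 0.00705) and rho was 0.44 (permutation p = 0.0685), and the relation did not pass after adjustment (adjusted p = 0.0881). It was 0.099 in KO tumours and 0.83 in WT tumours, and it came to 0.34 without WT1 and 0.58 without KO6 and WT1. Without KO6 alone r was 0.80 and passed, with an adjusted permutation p of 0.0380.

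Egr2 had r = 0.62 with stromal markers (permutation p = 0.0114, adjusted 0.127) and rho = 0.29 (permutation p = 0.244), and r was 0.24 without KO6. With T cell markers its r was 0.52 (permutation p = 0.0256, adjusted 0.213) and rho 0.030 (permutation p = 0.910), and r came to 0.19 without KO6. That tumour was the highest of all 18 for Egr2 and for the T cell, dendritic, stromal, endothelial and pan-B lists. Over the 13 tumours lowest in T cell markers, a narrower range, r of Egr2 was -0.44 (permutation p = 0.136) and rho -0.54 (permutation p = 0.0576). Over the 15 lowest in stromal markers r was 0.12 (permutation p = 0.658). Ier2 was the only gene of the 10 with an r below -0.5, at -0.55 with endothelial markers (permutation p = 0.0187, adjusted 0.170; rho = -0.61, permutation p = 0.00781). Of those 13 markers 12 had a negative r, and r was -0.82 in KO tumours, -0.21 in WT tumours and -0.51 without KO6 and KO8. Scaling changed the call: r was -0.72 after quantile normalization (adjusted permutation p = 0.0405) and -0.71 after median centring (adjusted permutation p = 0.0340), past the threshold in both. Egr1, Egr3, Ier3, Nr4a1 and Klf4 had no r of 0.5 or more in size with any of the 10 lists.

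**Figure D4:**
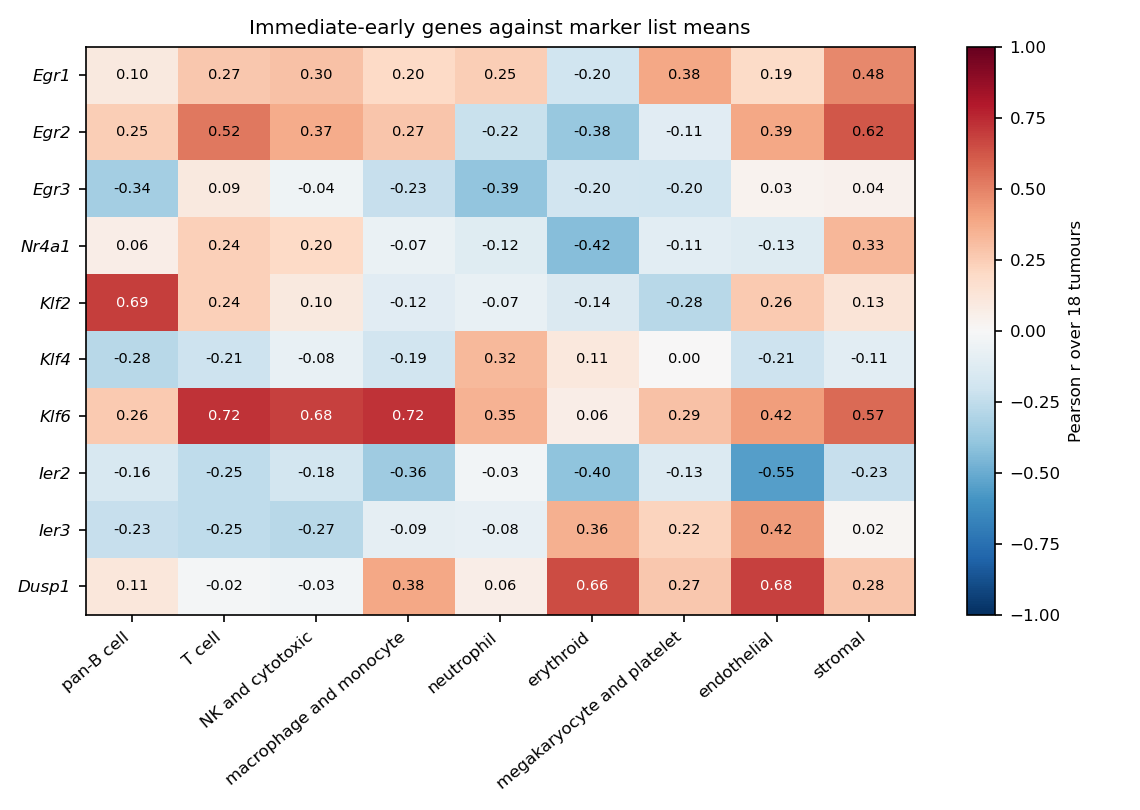
Pearson r over 18 tumours between each of the 10 genes and the mean level of 9 marker lists, as colour and value. The dendritic list is left out, since the gap between its 2 sets of tumours was the largest share of the range among the lists. The highest values are those of Klf6 with T cell and macrophage markers (0.72 each), Klf2 with pan-B markers (0.69) and Dusp1 with endothelial markers (0.68).

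Egr3 varied with the median of the arrays. Its r with the array median was 0.75 (permutation p = 0.00023, adjusted over 20 relations 0.0046) and rho was 0.69 (permutation p = 0.00197). With the median correlation of an array to the others r was -0.71 (adjusted permutation p = 0.0133; rho = -0.61, permutation p = 0.0083), and without WT3 and KO4 it was -0.39. Without WT3 and KO4 the r with the array median was 0.50, and without KO9 and WT3 it was 0.58. An r as high was found for 3.99% of genes. Egr3 had an absolute r of at least 0.5 with 27.8% of all other genes, against 17.0% for Klf4, 11.2% for Klf6 and 1.52% for Ier3. By Pearson r, the other 9 genes had 0 relations with the array measures that passed after adjustment. By rank, Egr2 had rho = -0.73 (permutation p = 0.00083) with the median correlation to the others, where its r was -0.36. With the array median, rho was 0.59 for Egr2 (permutation p = 0.0116), 0.50 for Dusp1 (permutation p = 0.0373) and 0.49 for Klf2 (permutation p = 0.0392). The rank p-values were not adjusted.

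**Figure D5:**
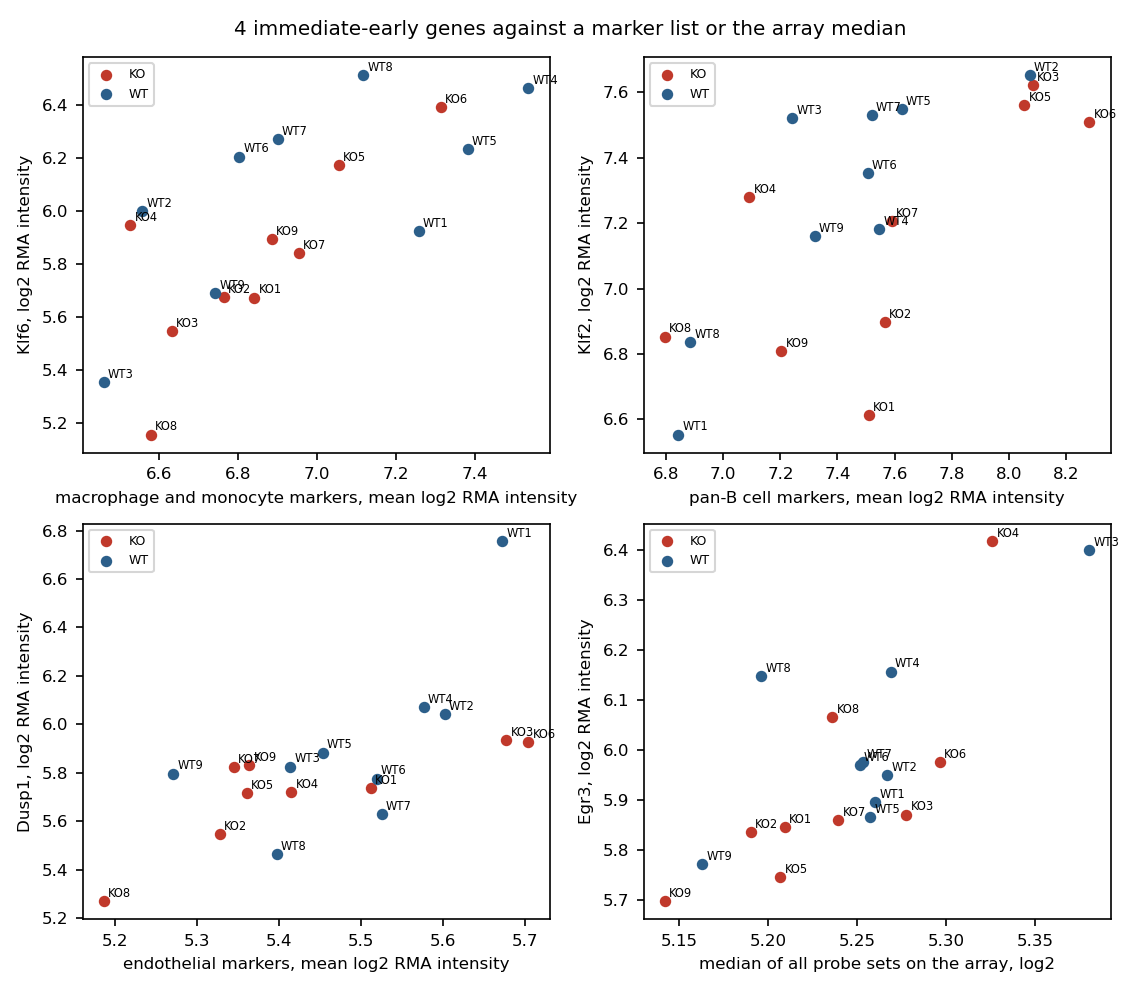
Log2 level of a gene (vertical axis) in each of 18 tumours against the mean log2 level of a marker list or the array median (horizontal axis), with KO tumours in red and WT tumours in blue. Klf6 follows the mean of the macrophage markers and Klf2 that of the pan-B markers in both genotypes. WT1 lies high for Dusp1 (6.76), and KO4 and WT3 are the highest for Egr3.

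Genes outside the group with the most similar pattern were picked by the highest r among all genes, so their r is high by choice and is a description. Dusp1 was most like Ddit3 (r = 0.92), which encodes the stress factor CHOP, then Popdc2 (0.85) and Sec62 (0.84). Klf2 was most like Bank1 (0.84), a gene of the pan-B list, Niban3 (0.82) and B3gnt8 (0.82). Klf6 was most like Txndc15 (0.89), Anxa5 (0.85), an annexin gene, and Mpeg1 (0.85), which macrophages express highly. Ier3 was most like Mt2 (0.75), a metallothionein gene, Dock6 (0.69) and Pgap6 (0.69). For Egr1 they were Defb1 (0.82), Frmd6 (0.80) and Fbxw13 (0.78), and for Nr4a1 Cnbd2 (0.78), Slc12a1 (0.77) and Nat8 (0.76). For Egr2 they were Clec1a (0.87), Adam23 (0.82) and Krt7 (0.82). For Egr3 they were Trim9 (0.92), Sh3bp1 (0.90) and Prm3 (0.90), and for Klf4 Dok1 (0.87), Tssk6 (0.85) and Cplx4 (0.83). Ier2 was most like Cylc1 (0.82), Olfr1283 (0.82) and Edar (0.81). Some of these genes were near the background guide: Olfr1283 averaged 2.41, Cylc1 2.83 and Cplx4 3.28, below the receptor gene median of 3.44. Slc12a1 (3.74) and Defb1 (3.78) were little above it. Ier2 itself averaged 5.04, close to the 95th percentile of 5.02. Nr4a1 averaged 5.20, Egr2 5.25 and Klf4 5.31, little above that percentile. Their lowest KO tumours, at 4.94, 4.86 and 4.83 in the same order, lay below it. Whether such shared patterns reflect expression was not tested. None of the 10 genes was among the 3 nearest of another, since the search left the group out, and the nearest pair within the group had r = 0.48.

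Genes of the surrounding pathways were compared by genotype in the same limma fit, and 0 of any list passed after adjustment. Over all genes 59.2% had lower KO means, and at an unadjusted p below 0.05, 3.87% were lower and 2.83% higher. Of 8 AP-1 subunit genes all had lower KO means, with a median difference of -0.12, and 0 had an unadjusted p below 0.05. Fos had -0.21 (SE 0.11) and Fosl2 -0.15 (SE 0.085). Of 15 other immediate-early transcription factor genes 8 had lower KO means, and Id1, an inhibitor of basic helix-loop-helix factors, was the only one with an unadjusted limma p below 0.05, at -0.22 (SE 0.085). Nr4a3, a relative of Nr4a1, had -0.18 (SE 0.093). Of 28 immediate-early effector genes 18 were lower in mean. Gadd45a, a growth arrest and stress gene, was the only one below 0.05 unadjusted, with a mean of 8.17 ± 0.19 in KO tumours and 8.66 ± 0.45 in WT tumours (SD, n = 9 each). Sgk1, a kinase gene, had 0.21 (SE 0.11).

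The ERK pathway and SRF cofactor genes ran the other way in mean: 19 of 22 measured had higher KO means, with a median difference of 0.12 against -0.030 over all genes. Rps6ka3, the kinase gene of RSK2, had 0.44 (SE 0.20) and was the only one with an unadjusted limma p below 0.05. Map2k5, which acts above ERK5, had 0.27 (SE 0.13). Of 12 MAP kinase phosphatase genes other than Dusp1, 7 had higher KO means and 0 had an unadjusted p below 0.05, with -0.17 for Dusp3 and 0.25 for Dusp6. Of 12 other KLF genes 9 had lower KO means. Klf1, the erythroid member of the family, averaged 6.63 ± 0.26 in KO tumours and 7.31 ± 0.62 in WT tumours (SD, n = 9 each), a difference of -0.68 (SE 0.21) with an unadjusted limma p of 0.00355 and an adjusted p of 0.665. The erythroid marker list had a difference of -0.56, and its part in that of Klf1 was not tested. Klf3 had -0.42 (SE 0.29). Of 8 KLF2 and lymphocyte egress genes 5 had lower KO means and 0 an unadjusted p below 0.05, with -0.21 (SE 0.27) for S1pr1, the egress receptor, and -0.19 (SE 0.20) for the integrin gene Itgb7.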

How the data were processed

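RNA from 9 KO and 9 WT whole tumours was hybridised to Affymetrix arrays, per the labels' protocols. The deposited probe set intensities were linear; the authors used RMA, according to the tools listed per the submitters' processing notes. Its version, batches, scan dates and the sex of the mice are not given in these sources. Intensities ran from 1.63 to 14996. They were transformed to log2 with no pseudocount or filter.

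Of 35556 probe sets 21789 had 1 symbol, 1621 several and 12146 none in the platform annotation. Where a gene had several probe sets, that of highest mean level was taken. Of 153 pairs of arrays 0 were identical.

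KO minus WT was tested with limma 3.58.1 (R 4.3.3) with Benjamini-Hochberg adjustment over 19938 genes at 0.05, and for each of the 10 genes by an exact permutation test (two-sided, 48620 divisions of the tumours). Correlations used 100000 permutations (scipy 1.17.1), with adjustment over 45, 100 or 20 relations. Scripts were tested on simulated data. P-values set a difference or an r against the variation between tumours of separate mice, and the number of arrays limits the precision. The 10 genes and all lists were chosen with earlier results of these data known. All 10 are named, with the 3 most similar genes of each (unannotated clones passed over), the 2 genes of lowest unadjusted p per pathway list, and Fos, Fosb, Jun and Junb for their r; Cd59a, the single markers and the AP-1 relations printed were picked after their values were seen. Alternatives covered scaling, probe set choice, covariates, array weights and tumours left out. Promoter sequences came from RefSeq. The same replicate numbers in both genotypes did not pair the tumours: their correlations ran from -0.23 to 0.49, and 1 of 9 was highest with its own number.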

Additional observations from a re-analysis of the deposited data

Results flagged for a closer look

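A tumour lying far from the other 8 of its genotype (its gap to the nearest, as a share of the range, above Dixon's 95% critical value) was found in 5 of 40 groups tested, where chance gives about 1 in 20. Egr2 was 6.11 in KO6, with the next KO tumour at 5.47. Nr4a1 was 5.68 in WT3, with the next WT tumour at 5.33. Dusp1 was 6.76 in WT1, with the next WT tumour at 6.07. KO6 also had a dendritic marker level of 5.83, against 4.91 in the next KO tumour, and a stromal marker level of 6.20, against 5.57.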

How the results depend on the processing

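Across 28 alternative fits 0 of the 10 genes passed the adjusted threshold, and across 24 alternatives 0 pairs did. The count of all genes past the threshold was 1, and 0 with the replicate block (the shared numbers do not pair the tumours) or without WT3 and KO4; leaving out single tumours gave 0 to 1, with 0 for 10 of the 18. The Egr2 difference (0.049) turned to -0.0090 with array weights and to -0.044 with the erythroid covariate, and single tumours moved it between -0.055 (without KO6) and 0.10. That of Nr4a1 (-0.034) turned to 0.054 without WT3 and KO4, and single tumours moved it between -0.083 and 0.023 (without WT3). The cause was not tested. Egr2, Ier2, Nr4a1 and Klf4 were not in the fit of genes above the median level. Marker list relations past the threshold numbered 5, but 0 by Spearman and 8 without WT3 and KO4 (an alternative chosen after seeing the data). Single tumours moved that count between 0 and 7: it was 0 without KO3, KO5, KO8, WT4 or WT8, 2 without KO6 or WT1, and 7 without KO4. It was 4 with quantile normalization, which removed Dusp1 with endothelial and Klf2 with pan-B markers and added Ier2 with endothelial markers; 4 with genotype means subtracted, which removed Klf6 with NK markers; and 6 with median centring. The r of the 5 stayed between 0.59 and 0.77 with any 1 tumour left out. Ier3 kept an unadjusted limma p below 0.05 in 28 of 28 alternatives and Klf4 in 25 of 27. Without detection calls, how far each probe set stood above background could not be measured.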
